A study of Mus musculus with 24 samples.

Results

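The guanylate-binding proteins (GBPs) and immunity-related GTPases (IRGs) are interferon-inducible GTPases, and 10 of their genes were followed here by name: Gbp2, Gbp3, Gbp5 and Gbp7 of the first family, and Igtp, Irgm1, Irgm2, Iigp1, Ifi47 and Tgtp2 of the second. They are 10 of the 54532 genes counted, all 10 were matched by identifier, and all 10 passed the filter on low counts in each sex. RNA of the left gastrocnemius, a calf muscle, of wild-type C57/BL6 mice was sequenced in 24 samples, 4 in each of 6 groups, with all labels giving a time of 24 h. Controls of each sex were sedentary and had 2 saline injections of pH 7.2 ± 0.1, each of 20 µl and 5 days apart, into that muscle. Sedentary pain animals had acid of pH 5.0 ± 0.1 at the same volume and spacing, with 6 min of electrically driven contraction of the muscle right before the second dose. Active pain animals could use running wheels for 8 weeks and then had that acid and contraction procedure; how much they ran is not analysed here. No group here was active without the pain procedure, and no group had acid or contraction alone. The labels do not say that each sample is a different animal, so p-values measure the spread between samples, which may be partly technical. Markers of skeletal muscle fibres summed to between 126555 and 286568 CPM in every sample, CPM being counts scaled to the size of each library.

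GBPs and IRGs are made in many cell types after interferon, above all interferon-gamma, whose receptor signals through JAK kinases to transcription factors, IRF1 among them. Factors activated by interferon-gamma bind gamma-activated sequences (GAS), and IRF proteins bind interferon-stimulated response elements (ISRE). The proteins attack the membranes around intracellular bacteria and parasites. GBPs also help to release bacterial products that the inflammasomes sense. Among IRGs, the effectors coat the vacuole that holds a parasite, and the IRGM proteins sit on the cell's own membranes and keep the effectors inactive there.

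The sequences that precede the members are shown because the letters that interferon-activated factors read recur in them. In the 250 bases before each start that RefSeq (GRCm38.p6) annotates, TTCNNNGAA was searched as GAS, and GAAA, any 2 bases and GAAA again as ISRE, on both strands, and matches of one motif may overlap those of the other. Windows were found for 9 of the 10 members, 10 windows in all because Gbp3 has 2 starts; Iigp1 is named only. A GAS match was in 5 of the 10 windows, an ISRE match in 8 and both in 5. Of all 32851 windows, from 27025 genes, 7.02% held the GAS letters, 2.98% the ISRE letters and 0.332% both. In Igtp, Irgm2 and Tgtp2 the GAS letters were followed after 2 bases by the ISRE letters on the same strand. That arrangement, searched for after these matches had been seen, was in 5 of the 32851 windows (0.0152%), and the other two belong to Tgtp1 and Gm12185, also IRG genes. The stretches around it are chr11:58199500-58199542 (plus strand) at Igtp, chr11:58214891-58214933 (plus) at Irgm2, chr11:49064262-49064304 (minus) at Tgtp2, chr11:48992303-48992345 (minus) at Tgtp1 and chr11:48927237-48927279 (minus) at Gm12185. Capitals mark GAS, then ISRE:
Igtp: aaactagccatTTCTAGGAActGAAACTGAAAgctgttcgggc
Irgm2: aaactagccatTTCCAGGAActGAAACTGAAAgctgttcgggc
Tgtp2: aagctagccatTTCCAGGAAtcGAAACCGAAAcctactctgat
Tgtp1: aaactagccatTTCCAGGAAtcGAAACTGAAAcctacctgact
Gm12185: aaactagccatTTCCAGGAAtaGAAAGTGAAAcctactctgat
The 5 stretches are 43 bases long and share the same base at 28 positions, and they end between 14 and 57 bases before the start. The 28 include the fixed letters of the 2 motifs, which are the same in all 5 because the stretches were found by them. None lies in an exon of GENCODE M21. The Igtp stretch lies outside all genes, and that of Tgtp2 lies in an intron of Olfr56, on the other strand. The remaining 3 lie in introns of longer transcripts of Irgm2, Tgtp1 and Gm12185.

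Gbp7 and Ifi47 are shown for contrast, with chr3:142530086-142530335 (plus) before Gbp7 and chr11:49076337-49076586 (plus) before Ifi47, both outside exons. The capitals in Gbp7 mark 2 GAS matches and then an ISRE match on the other strand, and Ifi47 holds neither set of letters in this window:
Gbp7: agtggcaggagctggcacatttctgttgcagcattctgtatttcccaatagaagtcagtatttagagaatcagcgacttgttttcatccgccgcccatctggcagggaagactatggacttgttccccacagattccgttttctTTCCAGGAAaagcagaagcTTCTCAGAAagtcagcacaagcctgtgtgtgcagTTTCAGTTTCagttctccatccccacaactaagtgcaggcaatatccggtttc
Ifi47: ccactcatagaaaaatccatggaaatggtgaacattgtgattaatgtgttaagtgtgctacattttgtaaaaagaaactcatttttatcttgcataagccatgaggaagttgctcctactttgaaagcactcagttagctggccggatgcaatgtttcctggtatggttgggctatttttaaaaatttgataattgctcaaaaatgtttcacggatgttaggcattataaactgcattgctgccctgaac
Gbp2 held an ISRE match on the minus strand, its letters reading TTTCACTTTC on the plus strand, and Gbp3 and Irgm1 held a pair of overlapping ISRE matches each. Gbp5 held GAS matches on both sides of an ISRE match. Unlike the windows of Gbp7 and Ifi47, these windows overlap GENCODE M21 exons of their own genes. Exons cover all 250 bases of the Irgm1 window, its matches included, and 61 bases of the Gbp2 window, where its match lies. They cover 34 bases at Gbp5, and 18 and 178 bases of the 2 Gbp3 windows. A match describes letters only; no binding was measured here.

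**Figure D1:**
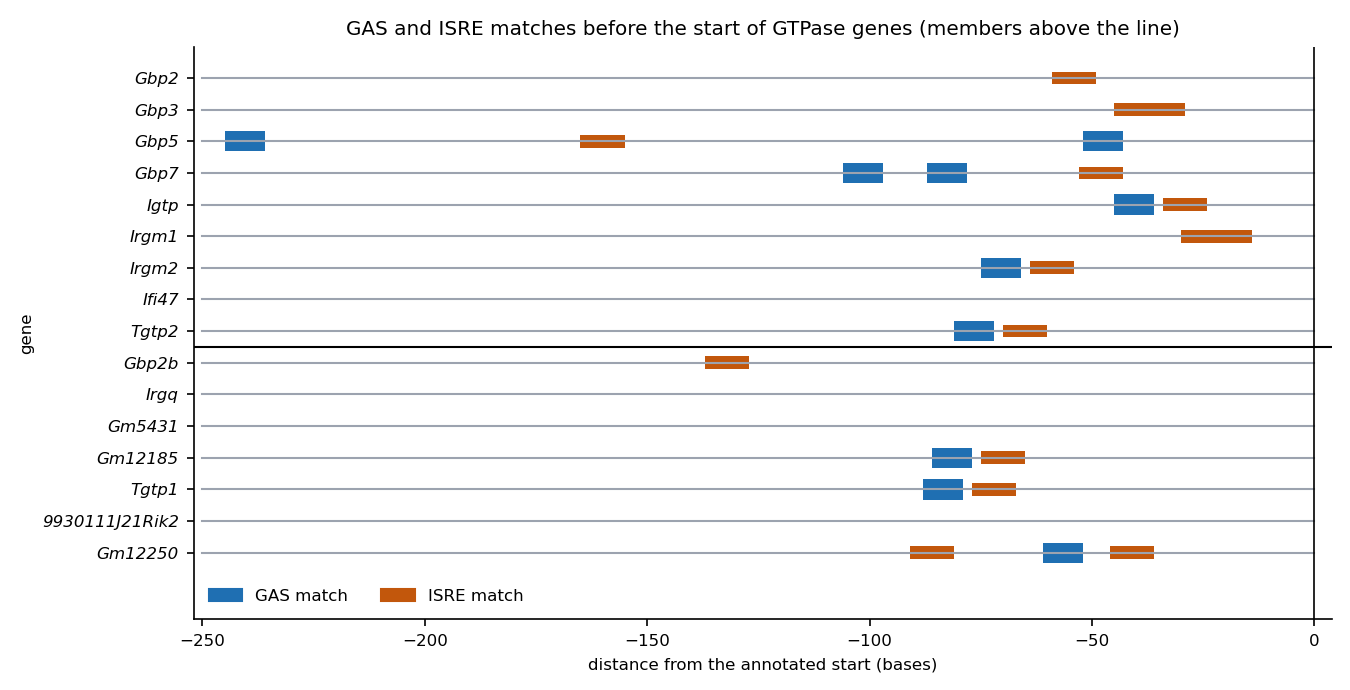
Matches to GAS (blue) and ISRE (orange) in the 250 bases before the RefSeq start of 9 members and of other family genes that passed the filter. The x axis is the distance from the start in bases. Igtp, Irgm2 and Tgtp2 carry the close GAS-ISRE pair, as do Tgtp1 and Gm12185, and Ifi47 carries no match. For Gbp3 the first of its windows is drawn.

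By position, the 4 GBP genes lie in a row on chromosome 3 (GRCm38), from Gbp5 (142493978 to 142522344) through Gbp7 (142530342 to 142550149) and Gbp3 (142560026 to 142573209) to Gbp2 (142620602 to 142638008), all on the plus strand. On chromosome 11 lie Irgm1 (48861968 to 48871683), Tgtp2 (49057194 to 49064206), Ifi47 (49076587 to 49096974), Igtp (58199556 to 58207591) and Irgm2 (58199618 to 58222782). Iigp1 lies on chromosome 18 (60376027 to 60392634). Igtp and Irgm2 overlap on one strand, Ifi47 overlaps Olfr56 on one strand, Gbp7 overlaps the pseudogene Gm43802, and Tgtp2 has the near-identical copy Tgtp1. How reads were divided among these is not given in the sources used here, so the values of these 5 members are less certain.

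In every one of the 10 members, female sedentary pain replicates 3 and 4 were the 2 highest of the 24 samples, at a median of 31.2 and 24.1 times the median of the female controls. Replicates 1 and 2 of that group stood at 2.60 and 2.28 times. The summed level of the 10 genes was 4234 and 4055 CPM in replicates 3 and 4, against 279 and 328.5 CPM in replicates 1 and 2. Female control replicate 4 was the highest female control in all 10 members, with a sum of 779 CPM against 82.5 to 97.3 CPM in the other three. Markers of fat cells (5 genes) were also high in female controls 3 and 4, at 3577 and 1910.2 CPM, against 37.4 to 497 CPM in the other samples; their part in the results was not tested. Counts of list genes called in female sedentary pain against control are also given without sedentary pain replicates 3 and 4, and without those and control replicate 4. Library totals ran from 17612139 to 34039699 counts, and the smallest count of any member in any sample was 19. The number in the library names was at most 20 for replicates 1 and 2 of every group and at least 25 for replicates 3 and 4, so values within each set are given as well.

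**Figure D2:**
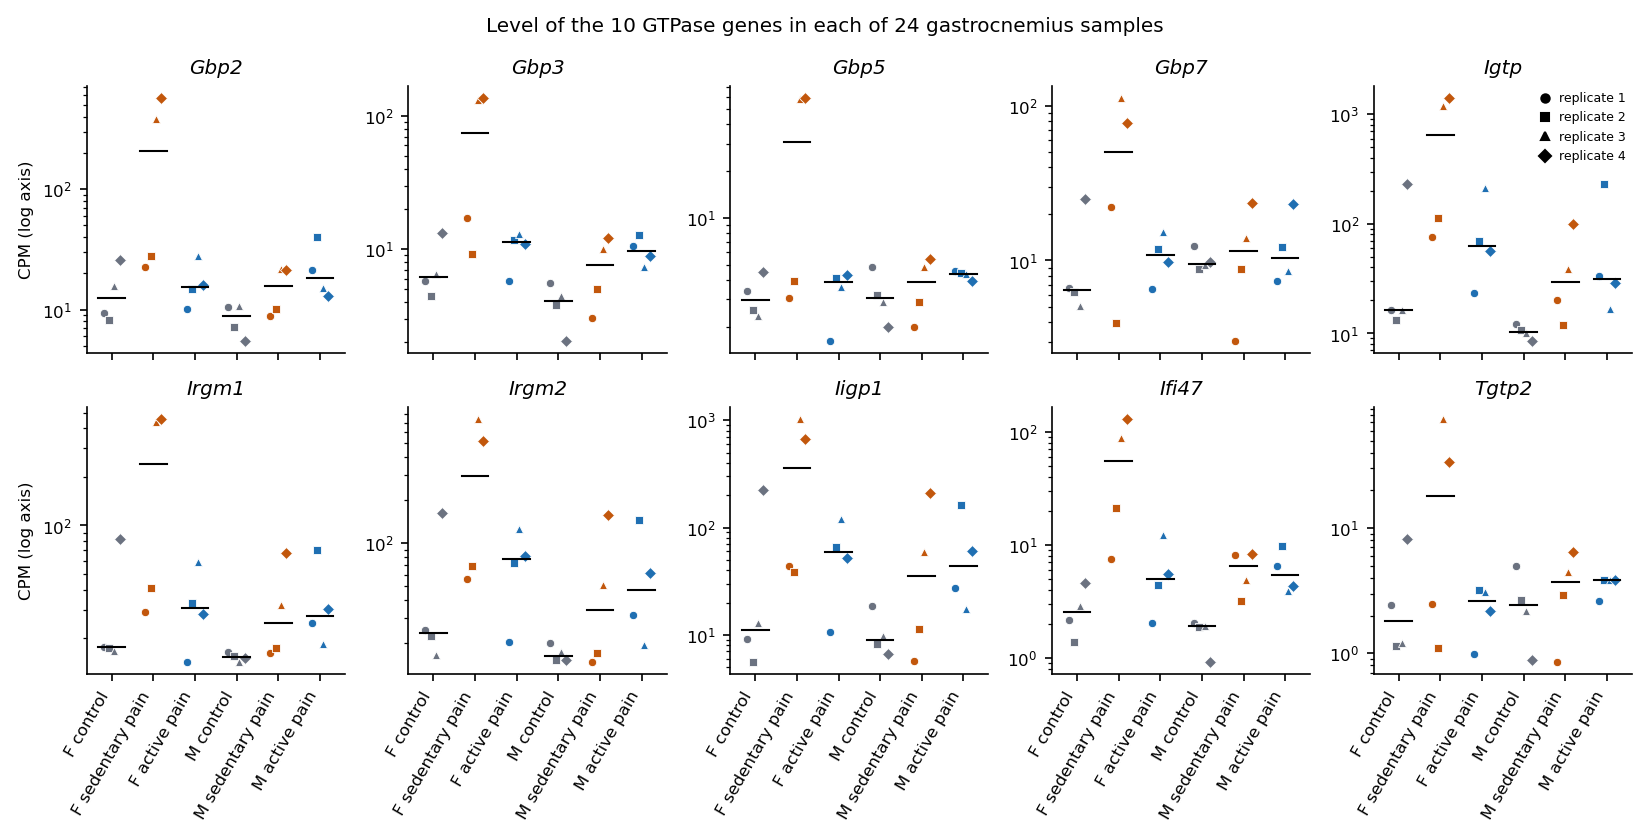
CPM of each of the 10 genes in all 24 samples on log axes, with markers for replicates 1 to 4 and a line at each group's median. Female sedentary pain replicates 3 and 4 are the highest points in all 10 panels. Female control replicate 4 is the highest female control in each.

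The GBPs of chromosome 3 rose in females with pain that had not run: Gbp2, Gbp3, Gbp5 and Gbp7 were all called higher in sedentary pain than in control, by 2.30 to 4.07 on the log2 scale. Gbp2, a lipid-anchored GBP that is recruited to pathogen vacuoles, read 9.44, 8.24, 15.6 and 25.8 CPM in female controls 1 to 4 and 22.6, 27.8, 386 and 570.4 CPM in sedentary pain. In active pain it read 10.1, 14.8, 27.8 and 16.0 CPM. Only replicates 3 and 4 of sedentary pain were above all other female samples by a wide margin, and replicate 1 of that group was below control replicate 4. The log2 fold change of sedentary pain against control was 4.07 ± 0.96 (SE, n = 4 per group; adjusted p = 0.0103, edgeR quasi-likelihood test with Benjamini-Hochberg adjustment).

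Gbp3 read 5.81, 4.42, 6.48 and 13.2 CPM in control, 17.1, 9.16, 132 and 136 CPM in sedentary pain, and 5.73, 11.7, 12.97 and 10.9 CPM in active pain. Its log2 fold change against control was 3.28 ± 0.78 (adjusted p = 0.0107). The groups overlapped through sedentary pain replicate 2 and control replicate 4. Gbp5, a prenylated GBP linked to NLRP3 inflammasome assembly, read 3.38, 2.57, 2.34 and 4.49 CPM in control, 3.06, 3.91, 58.1 and 59.1 CPM in sedentary pain, and 1.62, 4.09, 3.62 and 4.28 CPM in active pain. Sedentary pain replicates 1 and 2 lay within the range of the controls, and the log2 fold change was 3.26 ± 0.86 (adjusted p = 0.0165). Gbp7, linked to oxidase and autophagy proteins in host defence, read 6.63, 6.27, 5.07 and 25.1 CPM in control and 22.1, 3.97, 112 and 77.5 CPM in sedentary pain. In active pain it read 6.51, 11.9, 15.2 and 9.82 CPM. The lowest of these 12 samples was sedentary pain replicate 2, and the call for Gbp7 was close to the threshold (log2 fold change 2.30 ± 0.82, adjusted p = 0.0480), and was called in 8 of 21 other settings of the analysis.

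Of the regulatory IRGM genes, Irgm1 rose, and Igtp (the gene of Irgm3) and Irgm2 did not pass the test, with differences of like size. Irgm1, needed for control of mycobacteria in mice, read 17.7, 17.5, 16.7 and 82.3 CPM in female control and 28.9, 41.1, 439 and 454 CPM in sedentary pain. In active pain it read 14.3, 33.1, 59.0 and 28.4 CPM. Every sedentary pain sample exceeded controls 1 to 3, and replicates 1 and 2 were below control 4. The log2 fold change was 2.82 ± 0.92 (adjusted p = 0.0364), and the call was made in 13 of 21 other settings of the analysis.

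Igtp read 16.2, 13.2, 16.4 and 231 CPM in control, 75.6, 113, 1192 and 1401 CPM in sedentary pain, and 23.4, 69.4, 210.4 and 56.0 CPM in active pain. Its log2 fold change was 3.31 ± 1.2396 (adjusted p = 0.0572). Irgm2 read 24.5, 22.2, 16.4 and 162 CPM in control, 56.1, 69.3, 737 and 522 CPM in sedentary pain, and 20.3, 72.8, 125 and 81.4 CPM in active pain, with a log2 fold change of 2.60 ± 0.99 (adjusted p = 0.0591). For both genes the control group was split: replicate 4 was above sedentary pain replicates 1 and 2, and replicates 1 to 3 were below them. Without control replicate 4, all 10 members were called, as were 3161 of 14820 genes, 2073 of them higher.

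Of the effector IRGs, Ifi47 (Irgd) rose, with the largest estimate of the 10, and Iigp1 (Irga6) and Tgtp2 (Irgb6) did not pass the test. Ifi47 read 2.17, 1.39, 2.89 and 4.58 CPM in control, 7.49, 21.1, 87.7 and 128 CPM in sedentary pain, and 2.01, 4.38, 12.3 and 5.47 CPM in active pain. It was the one member whose sedentary pain samples were all above the controls (log2 fold change 4.44 ± 0.86, adjusted p = 0.00483); 15.3% of all genes tested lay above control in this way.

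Iigp1, which builds up on the vacuole of Toxoplasma, read 9.05, 5.55, 12.96 and 222 CPM in control, 43.4, 38.4, 1017 and 674 CPM in sedentary pain, and 10.5, 65.7, 119.8 and 51.5 CPM in active pain. Control replicate 4 was above 2 of the 4 sedentary pain samples, and the log2 fold change was 2.81 ± 1.37 (adjusted p = 0.123). Tgtp2 read 2.43, 1.14, 1.21 and 8.25 CPM in control, 2.495, 1.11, 73.6 and 33.8 CPM in sedentary pain, and 0.980, 3.18, 3.08 and 2.16 CPM in active pain. Sedentary pain replicate 1 was within the control range and replicate 2 just below it, and the log2 fold change was 3.06 ± 1.11 (adjusted p = 0.0507).

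Over the 10 members, 6 were called higher in female sedentary pain than in control, and 4 were not called. Of the 14511 genes tested, 19.6% were called higher and 33.5% were called in either direction. The members' median log2 fold change was 3.16, against -0.02 over all genes tested. With sedentary pain replicates 3 and 4 both left out, 1 member (Ifi47, log2 fold change 2.34, adjusted p = 0.0476) was called and Iigp1 and Tgtp2 were lower than control by estimate. With control replicate 4 left out as well, none of the 10 was called (666 of all genes), and the adjusted p of Ifi47 was 0.0590. Within replicates 1 and 2, 0 members were called (238 of all genes), and within replicates 3 and 4, 7 were, where 3456 of 15401 genes were called. With 1 surrogate variable in the model, 0 members and 61 of all genes were called, and 7 of the 10 members had negative estimates.

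In females given running wheels before the pain procedure, no member passed the test against control. In that comparison 0 of the 10 were called by edgeR, 0 had an unadjusted p under 0.05 and 0 were called by DESeq2. Of all 14511 genes, 0% were called and 1020 (7.03%) had an unadjusted p under 0.05. Log2 fold changes ran from -0.47 to 1.12 with a median of 0.16, and adjusted p-values ran from 0.837 to 0.999. These estimates depended on the setting. In 21 other settings of the analysis, each female sample left out in turn among them, 0 were called. Estimates there ran from -0.56 to 2.75 for Iigp1, from -0.50 to 2.55 for Igtp and from 0.036 to 1.84 for Irgm2. Within the active pain group replicate 3 was highest in 8 of 10 members and replicate 1 lowest in all 10. These controls include replicate 4, which was above the highest active pain sample for Gbp7, Igtp, Irgm1, Irgm2, Iigp1, Gbp5, Gbp3 and Tgtp2.

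In active against sedentary pain, 4 of 10 members were lower in females, where 9.41% of all genes were called lower. They were Gbp2 (-3.85 ± 0.95 on the log2 scale, adjusted p = 0.0328), Gbp3 (-2.81 ± 0.76, adjusted p = 0.0381), Gbp5 (-3.16 ± 0.85, adjusted p = 0.0379) and Ifi47 (-3.32 ± 0.81, adjusted p = 0.0328). The other 6 had negative differences that did not pass the test, from Irgm2 at -2.19 ± 0.97 (adjusted p = 0.144) to Tgtp2 at -3.53 ± 1.13 (adjusted p = 0.0609). Gbp7 stood at -2.29 ± 0.82 (adjusted p = 0.0818), Igtp at -2.93 ± 1.22 (adjusted p = 0.122), Irgm1 at -2.81 ± 0.92 (adjusted p = 0.0638) and Iigp1 at -2.82 ± 1.37 (adjusted p = 0.174). The members' median was -2.87, against 0.01 over all genes, and in 0 of the 10 did the groups lie apart (6.37% of all genes lay wholly lower). This comparison shares its sedentary pain samples with the one above. Leaving out sedentary pain replicate 3 or 4, or active pain replicate 1, 2 or 4, brought the members called to 0, with 0 to 3 of all genes called. Leaving out sedentary pain replicate 1 or 2 brought them to 7, with 4316 and 1756 of all genes called.

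**Figure D3:**
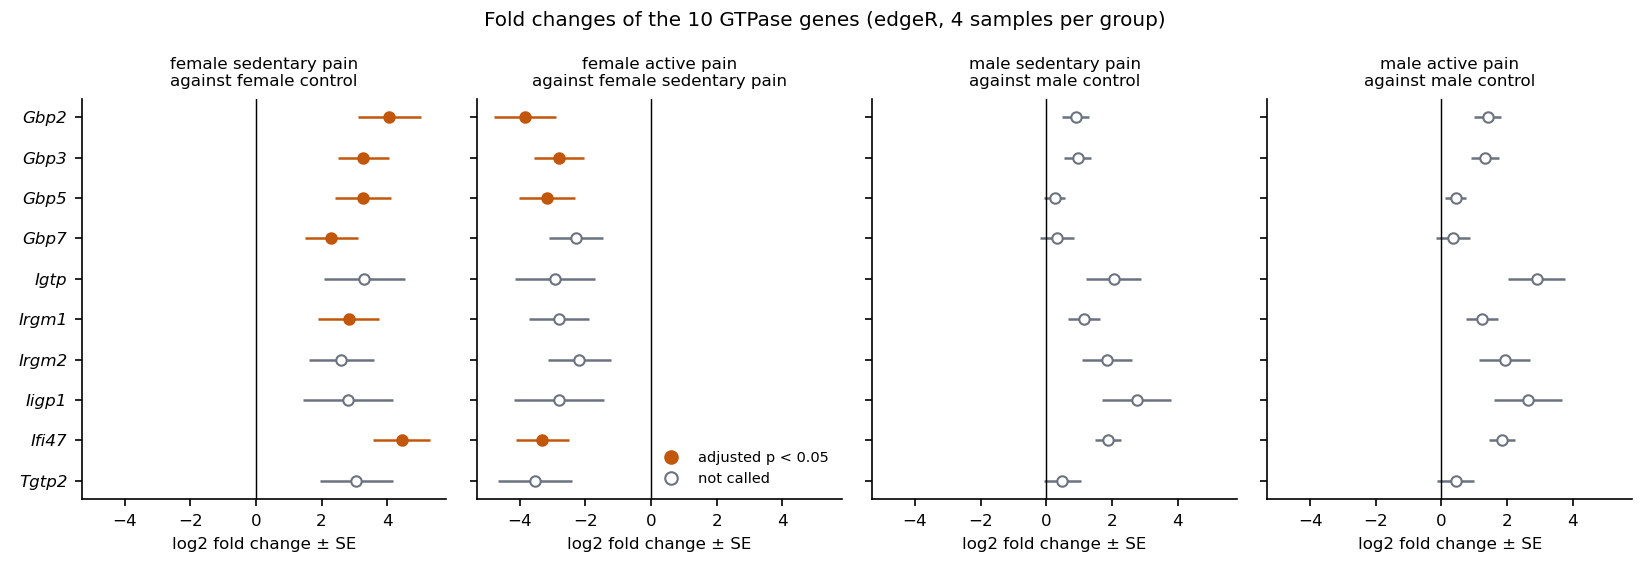
Log2 fold change (x axis) of each member in 4 comparisons, with bars of ± 1 SE and filled points where the edgeR adjusted p was under 0.05. In females 6 members were called against control and 4 in active against sedentary pain. In males 0 were called in either comparison, and every estimate was above 0.

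In males no member passed the test in any comparison, with positive estimates for all 10 against control in both pain groups. Within replicates 1 and 2 alone, 6 of the 10 were negative in sedentary pain and 2 (Gbp7 and Tgtp2) in active pain, and Gbp7 was negative without replicate 4 of either pain group (-0.20 and -0.073). In male sedentary pain against control, 0 of 10 were called by edgeR (0% of 14404 genes), with 6 members and 1273 genes (8.84%) at an unadjusted p under 0.05, and DESeq2 called 1 member, Ifi47, among 270 genes. The median log2 fold change was 1.05, from 0.25 for Gbp5 to 2.75 for Iigp1, and -0.01 over all genes. Ifi47 read 2.05, 1.89, 1.90 and 0.912 CPM in male controls 1 to 4, 8.07, 3.14, 4.86 and 8.33 CPM in sedentary pain, and 6.42, 9.72, 3.86 and 4.35 CPM in active pain. All 8 pain samples were above all 4 controls for Ifi47 (log2 fold change 1.87 ± 0.40, adjusted p = 0.296 in sedentary pain), the one member to lie apart there, where 3.95% of all genes did.

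In male active pain, 0 of 10 were called (0% of 14404 genes; 7 members and 1045 genes (7.25%) at an unadjusted p under 0.05), and DESeq2 called 2, Igtp and Ifi47, among 127 genes. The median was 1.37, against 0.00 over all genes. Gbp2, Gbp3, Igtp, Irgm1 and Ifi47 lay wholly above the controls, 5 of 10 members, where 6.34% of all genes did. Gbp2 read 10.4, 7.20, 10.7 and 5.50 CPM in male control, 8.88, 10.04, 21.7 and 21.4 CPM in sedentary pain, and 21.4, 40.1, 15.05 and 13.01 CPM in active pain. Igtp read 12.1, 10.7, 10.04 and 8.55 CPM in male control, 20.4, 11.98, 39.0 and 98.9 CPM in sedentary pain, and 33.7, 230.0, 16.7 and 28.8 CPM in active pain. The control values of both genes were close together, and the pain groups were spread, with 1 sample far up for Igtp.

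Iigp1 read 18.5, 8.21, 9.70 and 6.67 CPM in male control, 5.69, 11.4, 59.4 and 208 CPM in sedentary pain, and 27.6, 162, 17.3 and 60.6 CPM in active pain. Irgm2 read 20.0, 15.2, 17.3 and 15.1 CPM in male control, 14.6, 16.9, 50.5 and 158 CPM in sedentary pain, and 31.5, 145, 19.4 and 61.6 CPM in active pain. In both, 1 sample stood highest in each pain group, as in most members: sedentary pain replicate 4 in 9 members and active pain replicate 2 in 8. Female groups had such samples too, with control replicate 4 highest in 10 members and active pain replicate 3 in 8. Male sedentary pain replicate 1 was lowest of its group in 8 members, with a sum of 82.6 CPM against 66.5 to 107 CPM in the male controls, and only Igtp and Ifi47 were above all male controls there, Ifi47 at 4.26 times the control median. Active against sedentary pain gave 0 calls in males (0% of 14404 genes; 0 members and 121 genes (0.840%) at an unadjusted p under 0.05), with a median of 0.08 and a range of -0.11 to 0.84. DESeq2 called 0 members there as well.

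The difference between the sexes was tested itself, as female minus male change. For sedentary pain against control the members' median difference was 2.19 on the log2 scale, highest for Gbp2 at 3.22 ± 1.03 and lowest for Iigp1 at 0.10 ± 1.72, and 0 of 10 were called (0% of 15103 genes). Adjusted p-values ran from 0.432 to 0.988, with 4 members and 1446 genes (9.57%) at an unadjusted p under 0.05, and DESeq2 called 0. For active pain against control the median was -1.04, with 0 called, 0 members and 307 genes (2.03%) at an unadjusted p under 0.05, and 0 called by DESeq2. For active against sedentary pain the median was -3.28, with 0 called by edgeR (adjusted p from 0.228 to 0.448; 8 members and 2224 genes (14.7%) at an unadjusted p under 0.05) and 4 by DESeq2. Male against female controls gave 0 called members where 2.83% of genes were called (1 member and 14.9% of genes at an unadjusted p under 0.05; DESeq2 called 0).

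By group, female sedentary pain had the highest median CPM in all 10 members. The lowest median was in male controls for 7 members and in female controls for Gbp5, Gbp7 and Tgtp2. Neighbouring groups in this order overlapped in every member except for 1 pair in Igtp and 1 in Irgm1. Per kilobase of exon, Igtp had the highest mean level and Gbp5 the lowest in all 6 groups. In male controls levels were 5.12 ± 0.737 CPM per kilobase (SD, n = 4) for Igtp, 4.57 ± 0.624 for Irgm2, 3.36 ± 1.01 for Gbp2 and 2.64 ± 0.160 for Irgm1. Iigp1 followed at 1.85 ± 0.912, Gbp7 at 1.79 ± 0.275 and Gbp3 at 1.21 ± 0.446, and Tgtp2, Ifi47 and Gbp5 stood at 0.907 ± 0.577, 0.682 ± 0.211 and 0.485 ± 0.178. Of the 9 neighbouring pairs in that order, 7 differed by no more than the larger SD, all but Irgm2 with Gbp2 and Gbp7 with Gbp3. In female sedentary pain Igtp stood at 344 ± 346 CPM per kilobase and Gbp2 was second at 100.1 ± 108, and all 9 neighbours were within the larger SD.

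By the median of each family relative to control, the IRG members stood above the GBP members in 5 samples where the genes were high, with single genes that did not follow. In female sedentary pain replicates 3 and 4 the 6 IRG members stood at a median of 37.6 and 38.2 times the control median, and the 4 GBP members at 20.5 and 21.01 times. In female control replicate 4 the medians were 5.80 times for IRG and 2.105 times for GBP members. The same order held in male sedentary pain replicate 4, at 6.97 and 2.44 times, and in male active pain replicate 2, at 7.02 and 2.27 times. Gbp2, at 45.5 times in female sedentary pain replicate 4, was above Irgm1 (25.8), Irgm2 (22.4) and Tgtp2 (18.6) there. These samples were picked for their high levels, and the difference between the families has no test.

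**Figure D4:**
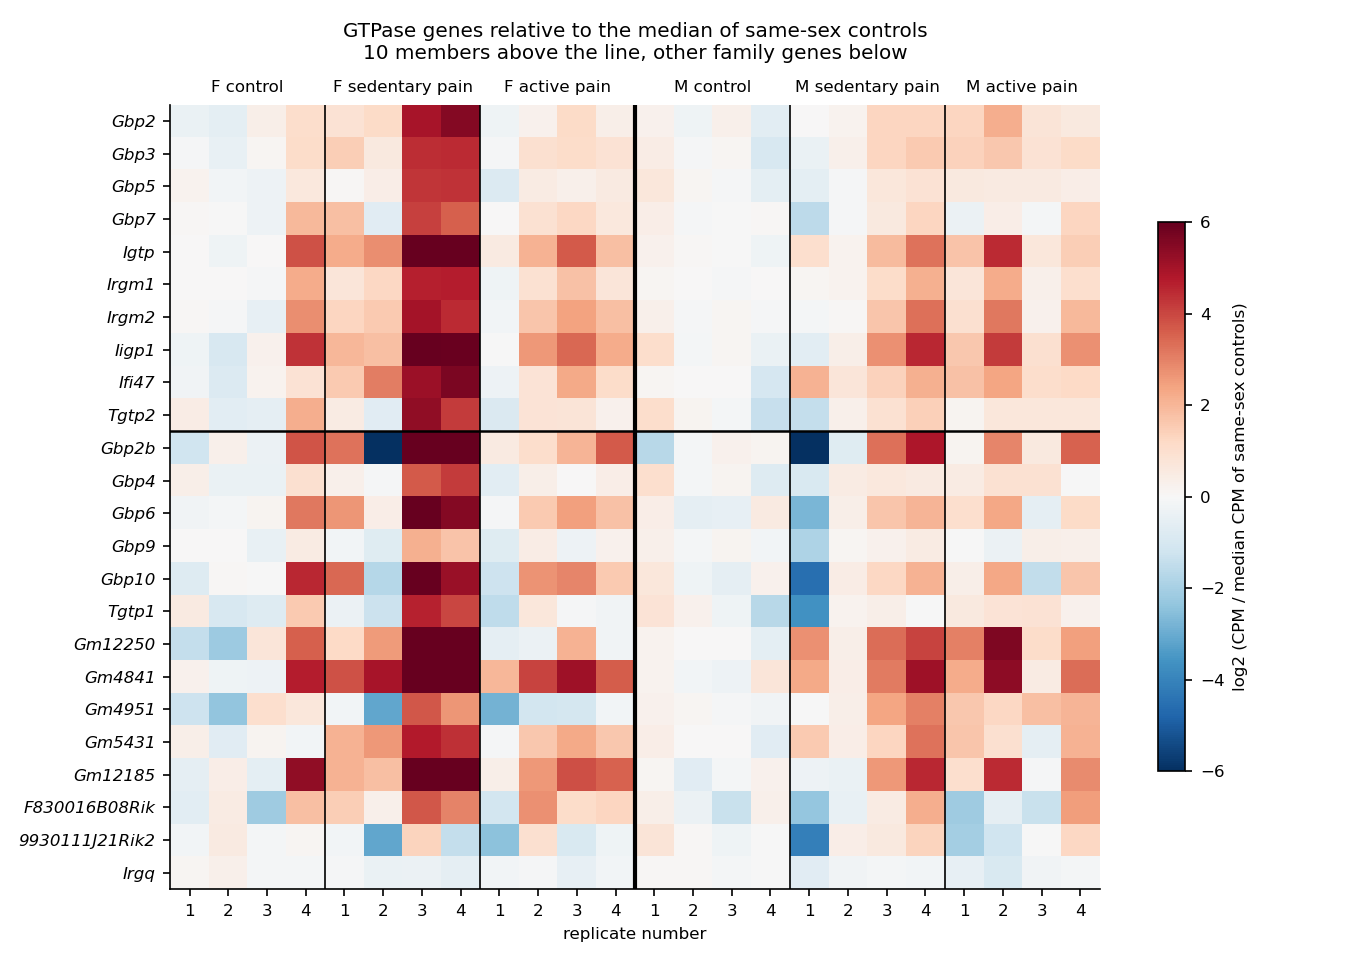
Log2 ratio of CPM to the median of same-sex controls for the 10 members and other family genes (rows) in the 24 samples (columns); the colour scale ends at 6 in both directions, and a small constant keeps ratios of 0 on it. Female sedentary pain replicates 3 and 4 are dark red for nearly all rows, and female control replicate 4 is red for the IRG rows above all. Irgq is near 0 throughout.

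Other genes of both families were read from the same libraries. Of 5 further GBP genes tested, 3 were higher in female sedentary pain than in control and 2 were not called. Without sedentary pain replicates 3 and 4, edgeR called 0 of the 5 (0 at an unadjusted p under 0.05), and without control replicate 4 as well 0 (1 at an unadjusted p under 0.05). Gbp2b, of the same chromosome 3 cluster, rose by 6.01 ± 1.67 on the log2 scale (adjusted p = 0.0204): it read 58.1 and 58.7 CPM in replicates 3 and 4 and at most 0.983 CPM in replicates 1 and 2. Gbp6 (3.29 ± 1.13, adjusted p = 0.0433) and Gbp4 (2.81 ± 0.82, adjusted p = 0.0250) also rose. Gbp10 (2.77 ± 1.43, adjusted p = 0.142) and Gbp9 (1.14 ± 0.54, adjusted p = 0.116) did not pass. On chromosome 5, Gbp4 and Gbp9 overlap each other on one strand, and Gbp6 and Gbp10 each overlap Gm43302.

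Of 9 further IRG genes tested, 2 were higher, 1 was lower and 6 were not called in that comparison, shares near the 19.6% called higher and 33.5% called in all among the genes tested. Gm4841 rose by 3.70 ± 1.31 (adjusted p = 0.0472), with 17.6, 12.6, 11.9 and 397 CPM in control and 210.2, 464, 2078 and 3037 CPM in sedentary pain. Gm5431 rose by 3.88 ± 0.66 (adjusted p = 0.00316) from a low level, with 0.126 to 0.260 CPM in control and 0.869, 1.28, 5.57 and 4.37 CPM in sedentary pain, and its groups did not overlap. Irgq, an IRG relative linked to autophagy, fell by 0.42 ± 0.15 (adjusted p = 0.0468). Not called were Gm12250, a pseudogene in the annotation (3.69 ± 1.37, adjusted p = 0.0554), Gm12185 (3.53 ± 1.61, adjusted p = 0.104), Tgtp1 (2.92 ± 1.08, adjusted p = 0.0551), Gm4951 (2.27 ± 1.06, adjusted p = 0.110), F830016B08Rik (2.14 ± 0.96, adjusted p = 0.0981) and 9930111J21Rik2 (-0.11 ± 0.75, adjusted p = 0.917). In active pain Gbp2b, Gbp4 and Gm5431 were lower than in sedentary pain. No other family gene was called in the remaining within-sex comparisons. Without sedentary pain replicates 3 and 4, 1 of the 9 IRG genes was higher than control, Gm5431 (2.37 ± 0.54, adjusted p = 0.0276). Without control replicate 4 as well it was 1 again, Gm4841 (4.57 ± 0.75, adjusted p = 0.0273).

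Upstream of the family, Ifng had few counts. Ifng, the interferon-gamma gene, did not pass the filter on low counts and was not tested. It read 2.53 and 5.50 CPM in female sedentary pain replicates 3 and 4, and at most 0.0916 CPM in the other 22 samples, female control replicate 4 with its raised members included. Its receptor genes Ifngr1 (0.75 ± 0.41 on the log2 scale, adjusted p = 0.156) and Ifngr2 (0.17 ± 0.17, adjusted p = 0.436) did not pass the test in female sedentary pain against control. Of 7 upstream genes tested, of 13 listed, 4 were higher (Tnf by 6.56 ± 1.42, adjusted p = 0.00730; Il18 by 2.95 ± 0.63, adjusted p = 0.00679; and the type I interferon receptor genes Ifnar2 by 1.37 ± 0.46 and Ifnar1 by 1.12 ± 0.26). Il12a, a subunit gene of interleukin-12, was lower (-0.89 ± 0.28, adjusted p = 0.0337), and 2 were not called.

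Of 18 interferon signalling genes tested, 14 were higher in female sedentary pain than in control, 0 were lower and 4 were not called. Of all genes tested, 19.6% were called higher. The list had a median log2 fold change of 2.69, against -0.02 over all genes. Without sedentary pain replicates 3 and 4, 4 of the 18 were higher, and 3 without control replicate 4 as well. Irf1 read 8.71, 7.61, 13.3 and 15.9 CPM in control, 12.5, 30.2, 198 and 365 CPM in sedentary pain, and 11.3, 9.74, 19.1 and 14.6 CPM in active pain (3.71 ± 0.85, adjusted p = 0.00898). Irf1 was highest in the samples where the members were, and highest of the female controls in replicate 4. Batf2 (5.24 ± 1.11), Ciita (4.29 ± 0.88), Socs1 (4.10 ± 0.94) and Socs3 (3.95 ± 0.61) had the largest rises of the list, with adjusted p-values of 0.00646, 0.00597, 0.00913 and 0.00260, and Nlrc5, the activator of MHC class I genes, rose by 3.13 ± 0.78 (adjusted p = 0.0133). In active pain 13 of the 18 were lower than in sedentary pain, where 9.41% of all genes were. Irf1 (-3.45 ± 0.84, adjusted p = 0.0328) and Nlrc5 (-2.89 ± 0.77, adjusted p = 0.0371) were among them.

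Genes that share inducers with the family were read as lists. Of 25 other interferon-gamma targets 24 were higher in sedentary pain than in control and 22 lower in active than in sedentary pain, with medians of 3.19 and -3.06. The largest rises were of Serpina3g (7.02 ± 1.66, adjusted p = 0.0105), the chemokine gene Cxcl10 (6.03 ± 1.32, adjusted p = 0.00762), the Fc receptor gene Fcgr1 (5.99 ± 0.90, adjusted p = 0.00260) and the chemokine gene Cxcl9 (4.78 ± 1.33, adjusted p = 0.0202). Of 20 type I interferon targets 19 were higher and 13 lower in active pain, led by Zbp1 (5.48 ± 0.91), Oas3 (5.37 ± 1.07), Oasl1 (4.16 ± 0.94) and Oas1a (4.07 ± 0.61). The 9 inflammasome and pyroptosis partners were all higher, with a median of 3.86, led by Il1b (7.76 ± 1.77, adjusted p = 0.00893) and Nlrp3 (6.20 ± 1.16, adjusted p = 0.00413), then Pycard (4.26 ± 0.71) and Casp1 (3.99 ± 0.89), and 7 of the 9 were lower in active pain. Of all genes tested, 19.6% were higher and 13.9% lower in sedentary pain than in control. In active against sedentary pain 9.41% were lower. Of 7 other large GTPases 3 were higher and 1 was lower, with Mx1, an antiviral GTPase, at 4.18 ± 0.95 and Atl2, an atlastin of the endoplasmic reticulum, at -0.70 ± 0.18.

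Partners that load or modify the GTPases had medians near 0. Of 14 autophagy conjugation and ubiquitin genes 5 were higher and 9 were not called, with a median of 0.08: Rnf213 rose by 1.79 ± 0.40, Trim21 by 1.59 ± 0.52, Sqstm1 by 1.07 ± 0.19 and Gabarap by 0.69 ± 0.20. Of 6 enzymes that attach and finish the lipid anchor of several GBPs, 1 was higher, the protease gene Rce1 by 1.23 ± 0.26 (adjusted p = 0.00671), and 5 were not called, a share near that of all genes tested. In active against sedentary pain 2 of the 14 and 1 of the 6 were lower in females, where 9.41% of all genes were. In the 4 within-sex comparisons other than these female ones, edgeR called 0 genes of the whole table.

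With female sedentary pain replicates 3 and 4 left out, 7.51% of 15015 genes were higher than control. Of the lists, 12 of 20 type I interferon targets, 6 of 25 interferon-gamma targets, 4 of 18 signalling genes and 4 of 9 inflammasome partners were then called higher, beside 1 of the 10 members. Of the other large GTPases 1 of 7 was higher, as were 1 of 14 autophagy and ubiquitin genes and 1 of 6 prenylation genes, and 0 of 7 upstream genes (4 at an unadjusted p under 0.05). With control replicate 4 left out too, the counts were 4 of 20 type I targets, 6 of 24 interferon-gamma targets, 3 of 18 signalling genes and 2 of 9 inflammasome partners, where 562 of 14774 genes were higher. Then edgeR called 1 of 14 autophagy and ubiquitin genes higher, and 0 of 6 large GTPases (2 at an unadjusted p under 0.05), 0 of 6 prenylation genes (1 at an unadjusted p under 0.05) and 0 of 7 upstream genes (4 at an unadjusted p under 0.05). In active against sedentary pain edgeR then called 0 genes in either case, with 2181 and 1976 genes at an unadjusted p under 0.05.

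T cell and macrophage markers were highest in female sedentary pain replicates 3 and 4, as the members were, and neutrophil markers were not. B cell, dendritic cell and fibroblast markers were also highest there. Fewer cells of a type and less RNA per cell cannot be told apart in whole muscle. The 14 T and natural killer cell markers summed to 6.24, 11.2, 104 and 175 CPM in female sedentary pain, 0.547 to 4.12 CPM in female control and 2.29 to 4.77 CPM in female active pain. In males they summed to 0.755 to 0.984 CPM in control, 1.44 to 5.46 CPM in sedentary pain and 2.12 to 4.69 CPM in active pain. Of the 14, 7 passed the filter on low counts in females. Of these 7, 7 were higher in sedentary pain than in control and 6 were lower in active than in sedentary pain. Of all genes tested, 19.6% were higher and 9.41% lower in these comparisons. The filter can keep genes that are high in 1 group only, so the counts may partly follow from it. Without sedentary pain replicates 3 and 4, 0 of the 7 were called against control (5 at an unadjusted p under 0.05), and the counts were the same without control replicate 4 as well.

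The 14 macrophage and monocyte markers summed to 556, 972, 4532 and 6641 CPM in female sedentary pain, 117 to 262 CPM in control and 309 to 616 CPM in active pain. In males they summed to 79.9 to 178 CPM in control and 280.4 to 621 CPM in active pain. In male sedentary pain they summed to 958, 174, 268 and 573 CPM, highest in replicate 1, whose members summed to 82.6 CPM. In females 13 of the 14 were higher in sedentary pain than in control (19.6% of all genes). In active against sedentary pain 11 were lower (9.41% of all genes). Without sedentary pain replicates 3 and 4, 12 of the 14 were higher than control (7.51% of all genes). Without control replicate 4 as well it was 12 again (3.8% of all genes). The part of these cells in the members' differences was not tested.

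Neutrophil markers were highest in other samples than the members. The 8 genes summed to 26.2, 280.5, 44.2 and 64.6 CPM in female sedentary pain, highest in replicate 2, whose members summed to 328.5 CPM. Of 7 tested, 6 were higher in female sedentary pain than in control, with a median of 5.03, and edgeR called 0 in active against sedentary pain (1 at an unadjusted p under 0.05). Without replicates 3 and 4, 6 were higher than control, and without control replicate 4 as well 2 were. They summed to 328 CPM in male sedentary pain replicate 1 and to 5.85 to 7.20 CPM in replicates 2 to 4, and ranged from 2.82 to 8.31 CPM in female control, 8.91 to 120.3 CPM in female active pain, 3.21 to 12.4 CPM in male control and 8.94 to 92.6 CPM in male active pain. Ly6g, a defining neutrophil gene, was at 0 in all male controls. In that male sample, picked for its neutrophil markers, 18 of 23 interferon-gamma targets, 15 of 20 type I targets, 7 of 7 inflammasome partners and 8 of 18 signalling genes that could be tested in males were at the highest level of the group. None of the 10 members was, nor any of 5 other GBP and 9 other IRG genes. Ifi47 was near the top, at 8.07 CPM against 8.33 CPM in replicate 4. Among other lists, 5 of 6 upstream, 11 of 14 macrophage and 8 of 14 autophagy and ubiquitin genes were highest in replicate 1. So were 2 of 7 large GTPase, 2 of 6 prenylation and 0 of 3 T and natural killer cell genes. The share of all genes that were highest in that sample was not computed, so these counts have no background. Il1b read 52.8 CPM and Socs3 74.6 CPM there, and Gbp6 0.202 CPM. Dendritic cell markers (6 genes) read 7.26, 11.03, 20.8 and 24.2 CPM in female sedentary pain, and fibroblast markers (8 genes) 865, 511, 1552 and 1209 CPM. Of 4 dendritic cell markers tested 1, and of 8 fibroblast markers 3, were higher there than in control. Without replicates 3 and 4 edgeR called 0 of 5 dendritic cell and 0 of 8 fibroblast markers (2 and 3 at an unadjusted p under 0.05), and without control replicate 4 as well 0 of 3 and 0 of 8 (2 and 3). B cell markers (6 genes) reached 7.48 and 11.8 CPM in female sedentary pain replicates 3 and 4 and at most 2.05 CPM in the other samples. Of 2 tested 2 were higher than control; without those replicates edgeR called 0 of 2 (0 at an unadjusted p under 0.05), and without control replicate 4 as well 0 of 1 (1 at an unadjusted p under 0.05). Muscle fibre markers (12 genes) were lowest in those replicates, at 138679 and 126555 CPM.

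**Figure D5:**
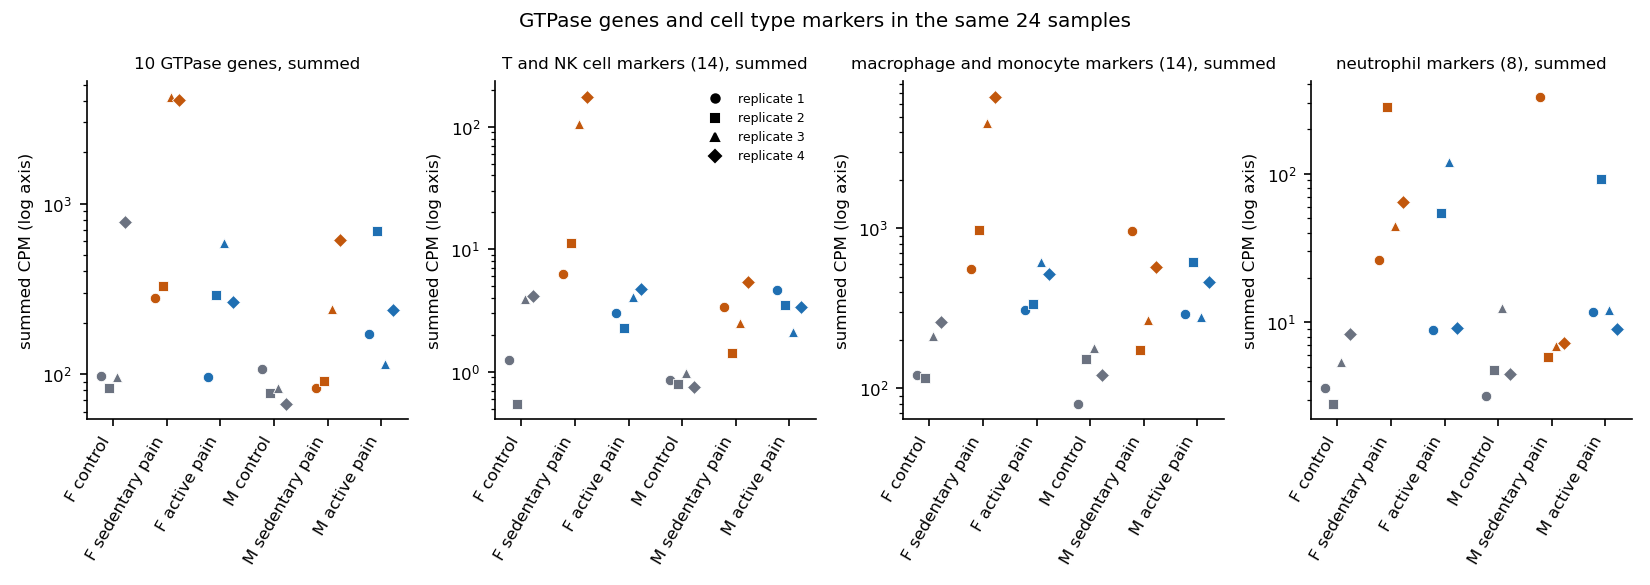
Summed CPM (log axes) of the 10 members and of 3 marker lists in each sample. T and natural killer cell markers and macrophage markers are highest in female sedentary pain replicates 3 and 4, as the members are. Neutrophil markers are highest in male sedentary pain replicate 1 and female sedentary pain replicate 2. Female control replicate 4 has members at 779 CPM with T and natural killer cell markers at 4.12 CPM.

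The genes most like the members were found by the correlation of log2 CPM with the members' mean scaled level over the 24 samples, among 11140 other genes. Among the closest were Trim21 (Pearson r = 0.953), Gm12185 (0.948), the checkpoint ligand gene Cd274 (0.941), Tapbpl (0.940), Parp14 (0.940), Gbp6 (0.934) and Lacc1 (0.927). Without female sedentary pain replicates 3 and 4 the values over 22 samples were 0.8287, 0.924, 0.807, 0.777, 0.790, 0.854 and 0.723 in the same order. These are descriptions over samples of 6 groups that share the condition differences above, and for Gm12185 and Gbp6 reads may also be shared with close family genes.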

How the data were processed

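Per the labels, stranded TruSeq libraries were made from total RNA of the left gastrocnemius and sequenced as 100-base pairs. The authors deposited raw counts per gene and sample. The submitters' processing notes name HISAT2 2.1.0, Salmon 0.9.1, featureCounts, DESeq2 1.24.0 and the builds mm10 and GRCm38.p6, without their roles; the annotation and the use of strand are not given in the sources used here. The design text has the sexes analysed separately and then compared. From the deposited counts, edgeR 4.0.16 (R 4.3.3; TMM, filterByExpr with a minimum count of 10, robust quasi-likelihood tests, two-sided) was fitted per sex over 12 samples, and over all 24 for the sex differences and the male against female controls. P-values were Benjamini-Hochberg adjusted over all genes tested and called under 0.05. CPM used TMM factors over the 24 samples. The test was checked on simulated counts. DESeq2 1.42.0, sva 3.50.0, other scalings and filters, and leaving out samples were alternatives. Promoter windows came from RefSeq and gene positions from GENCODE M21. Named were all members and tested family genes, Ifng, its receptor genes, Irf1 and Nlrc5, and in each list up to 4 called genes with the largest change in female sedentary pain and a mean log2 CPM of at least 1. The genes most like the members were the 8 with the highest correlation, of which 1 is not reported here. The members and lists were chosen with earlier results of these data known.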

Additional observations from a re-analysis of the deposited data

Results flagged for a closer look

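Of 60 member-by-group values, 8 had a sample whose gap to its nearest neighbour exceeded Dixon's 95% limit as a share of the group's range; chance does this in about 1 group in 20. Of these, 5 were female control replicate 4 as the highest, in Gbp7 (25.1 CPM), Igtp (231 CPM), Irgm1 (82.3 CPM), Irgm2 (162 CPM) and Iigp1 (222 CPM). These 5 values come from 1 sample. Male active pain replicate 2 was far above its group for Igtp (230.0 CPM). Male control replicate 4 was far below its group for Ifi47 (0.912 CPM), and male active pain replicate 1 was far below its group for Tgtp2 (2.63 CPM).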

How the results depend on the processing

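The 6 members called in female sedentary pain against control became 0 with 1 surrogate variable, 4 to 10 with 1 sample left out (10 without control replicate 4), 0 within replicates 1 and 2, 1 without sedentary pain replicates 3 and 4, and 0 without those and control replicate 4. The surrogate variable turned Gbp2 (-0.12), Gbp5 (-0.26), Igtp (-0.78), Irgm1 (-0.81), Irgm2 (-0.56), Iigp1 (-1.25) and Tgtp2 (-0.60) negative on the log2 scale. Leaving out sedentary pain replicates 3 and 4 turned Iigp1 (-0.61) and Tgtp2 (-0.85). The cause of these shifts was not tested. The settings within replicate pairs and without named sets of samples were chosen after seeing the data.

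The 4 members lower in female active than sedentary pain became 0 without the filter on low counts, 7 by DESeq2, 0 with 1 surrogate variable, 0 with only the 2 groups compared, 7 with all 24 samples in 1 fit, and 0 to 7 with 1 sample left out (2 without active pain replicate 3). They were 0 within replicates 1 and 2, 7 within replicates 3 and 4, 0 without sedentary pain replicates 3 and 4, and 0 without those and control replicate 4. With 1 surrogate variable Igtp (0.67), Irgm1 (0.38), Irgm2 (0.63) and Iigp1 (0.99) turned positive. Without sedentary pain replicates 3 and 4 Irgm2 (0.28), Iigp1 (0.61) and Tgtp2 (0.38) did, and without control replicate 4 as well they were 0.28, 0.62 and 0.39. Tgtp2 was 0.20 within replicates 1 and 2.

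Residuals of same-numbered samples correlated from -0.67 to 0.57. Samples of unlike number were not compared, so this cannot decide whether replicate numbers pair the samples. With the replicate block, 6 members were called in female sedentary pain against control and 2 in active against sedentary pain, and no male member was.

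In males DESeq2 called 1 member in sedentary and 2 in active pain against control. Within replicates 1 and 2 of male sedentary pain against control, Gbp3 (-0.21), Gbp5 (-0.71), Gbp7 (-0.82), Irgm2 (-0.16), Iigp1 (-0.63) and Tgtp2 (-0.997) turned negative, as did Gbp7 (-0.12) and Tgtp2 (-0.23) in active pain. With 1 sample left out Gbp7 ran from -0.20 to 0.64 in sedentary pain and from -0.073 to 0.57 in active pain (lowest without replicate 4 of the pain group in each). Members called in the sex difference were 4 within replicates 3 and 4 for sedentary pain against control. For active against sedentary pain they were 4 by DESeq2, 0 to 4 with 1 sample left out and 5 within replicates 3 and 4. Male against female controls gave 1 within replicates 3 and 4.

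Of all genes, 4867 were called in female sedentary pain against control (58.5% higher). Library size alone gave 4579 (82.9% higher, with the median of all genes at 0.17), the 2 groups alone 2847, 1 surrogate variable 61, 1 sample left out 2486 to 6674, replicates 1 and 2 alone 238, and sedentary pain replicates 3 and 4 left out 1440. In active against sedentary pain 1730 were called (21.04% higher). Library size alone gave 2385 (5.03% higher, median -0.19), no filter 174, DESeq2 3010, the library number term 2745, 1 surrogate variable 0, the 2 groups alone 0, and 1 sample left out 0 to 4316. Where edgeR called no gene, DESeq2 called 125 against control in active females, 270 in males of the sedentary pain group and 127 in active males. Low counts limit Ifng and Gbp2b.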
